A study of Mus musculus and Homo sapiens with 47 samples.

Results

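Goblet and Paneth-goblet cells were taken from single-cell RNA of mouse intestinal stem cell preparations by a marker gate. A barcode was kept when it had 2500 or more UMIs (unique molecular identifiers, each counting 1 captured RNA molecule) from 500 or more genes, of which mitochondrial UMIs made up no more than 20%. Gated cells were chosen by the levels of 5 marker genes: a cell was gated when Muc2, Fcgbp, Tff3, Spink4 and Zg16 together took at least 1% of its UMIs with at least 3 of the 5 detected. The gate held 80 of 3833 kept cells at day 7, 19 of 4664 at day 12 and 229 of 2792 at day 16, which is 328 of 11289 cells in all. The rule used the measured levels, so the gated cells' levels against all other cells of the same day are given as descriptions, without tests.

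The 3 libraries, 1 each of days 7, 12 and 16, came from adult mice of genotype Eed F/F; Lgr5EGFP-IRES-CreERT on a B6;129 mixed background. Eed is a core subunit of Polycomb repressive complex 2 (PRC2), which places the silencing mark H3K27me3. Tamoxifen, given daily for 5 days and every other day later, activated the Cre and recombined the floxed alleles in cells that express Lgr5, a stem cell gene, so every library of every day carried the same deletion design and no undeleted RNA library was analysed here. Cells with GFP were sorted out of the upper intestine's epithelium, and the labels call their source villus cells while the titles call them stem cells; neither the starting point of the day count nor the number of mice per library is given. Bulk RNA of cells sorted in the same way from mice of that genotype was counted in 8 libraries: 3 labelled day 9, and then 2, 2 and 1 labelled days 14, 21 and 30.

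Goblet cells secrete the mucus of the gut. Muc2 is the gel-forming mucin, Fcgbp a large protein bound to it, Tff3 a trefoil peptide, Zg16 a lectin-like protein that binds bacteria, and Spink4 a small protein of the protease inhibitor family that goblet and Paneth cells make. Paneth cells sit at the crypt base and secrete lysozyme and defensins. Both arise from Lgr5 stem cells through a secretory progenitor that turns on Atoh1 and escapes Notch signalling, and cells with granules of both kinds have been described between them.

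Median depth was 10631, 11611 and 10222 UMIs in gated cells of days 7, 12 and 16, and 7910, 7567 and 11983 in the other cells. The median mitochondrial share was 4.7, 4.98 and 6.56% in gated cells, and 8.84, 6.07 and 11.1% in other cells. In barcodes of 10 to 100 UMIs, which hold mostly free RNA, gate markers made up 0.156, 0.146 and 0.381% of the UMIs. The 99th percentile of the gate markers' share of a cell's UMIs in other cells was 0.284, 0.0745 and 0.7%. The library of day 16 also stood apart in Xist, the RNA of the silenced X chromosome, at 0.373 CPM (counts per 1000000 UMIs) in gated cells against 623 at day 7. The Y-linked Ddx3y had 55.6 CPM at day 16 and no UMI at days 7 and 12. Xist had 607 CPM at day 12, so by these 2 genes the cells of days 7 and 12 look female and those of day 16 male. Day, sex and animal cannot be told apart, and differences between days are given without tests. Intervals below are 95% intervals of counting error alone (exact Poisson for a CPM, exact conditional for a ratio, Clopper-Pearson for a share of cells), and cells of 1 library are not replicates.

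The gated share of kept cells was 2.09% (1.66 to 2.59) at day 7, 0.407% (0.245 to 0.635) at day 12 and 8.2% (7.21 to 9.28) at day 16. It followed the same order of days when Spink4 was left out of the gate, with 12, 10 and 185 cells and shares of 0.313, 0.214 and 6.63%. The mitochondrial limit also moved it: at no more than 10% mitochondrial UMIs, 192 of 878 day 16 cells were gated, or 21.9%. Within 0.25 percentage points above the threshold lay 9, 1 and 14 gated cells, and within 0.25 below it lay 10, 5 and 18 cells. Among gated cells the markers took a median of 2.29, 2.59 and 3.67% of UMIs, and up to 11, 49.8 and 41.2% in single cells.

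The gate was filled by different markers at each day. Spink4 alone gave most of the gate UMIs in 68 of 80 cells at day 7, 8 of 19 at day 12 and 67 of 229 at day 16. It had 18547 (18305 to 18792), 14384 (13917 to 14864) and 17055 (16899 to 17213) CPM in gated cells at the 3 days, and 113, 59.8 and 111 CPM in other cells. Spink4 was high in gated cells of each day, whereas the other 4 markers were lowest in those of day 7. Muc2 had 1084 (1026 to 1145), 3921 (3679 to 4175) and 3491 (3421 to 3563) CPM in gated cells, against 3.96, 1.97 and 12.3 CPM in other cells. Muc2 was detected in 76 of 80, 17 of 19 and 220 of 229 gated cells. Fcgbp had 1041, 8405 and 7016 CPM in gated cells, against 3.58, 13.6 and 39.9 CPM in other cells. Tff3 had 2784, 11746 and 13688 CPM in gated cells and 35.5, 11.3 and 167 CPM in other cells. Of the gated cells, 58 of 80 at day 7 and 83 of 229 at day 16 also passed a gate of Paneth genes, given below. In gated cells not past it the 4 markers were still lowest at day 7, by a smaller margin to day 16. Muc2 had 1929 CPM at day 7 and 3385 CPM at day 16 there, and Tff3 7191 and 15089 CPM. Fcgbp had 3652 and 8446 CPM, and Zg16 2801 and 10894 CPM.

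Zg16 was the most uneven of the gate markers from cell to cell. It was detected in 8 of 80 gated cells at day 7, 8 of 19 at day 12 and 86 of 229 at day 16, and took at least 1% of all UMIs in 2, 6 and 38 of them. Its summed level was 743, 29135 and 8600 CPM in gated cells, against 1.57, 4.6 and 14.1 CPM in other cells. One cell held 46.4% of the gated Zg16 UMIs of day 12, and one held 36.7% at day 7, so these levels rest on few cells.

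**Figure D1:**
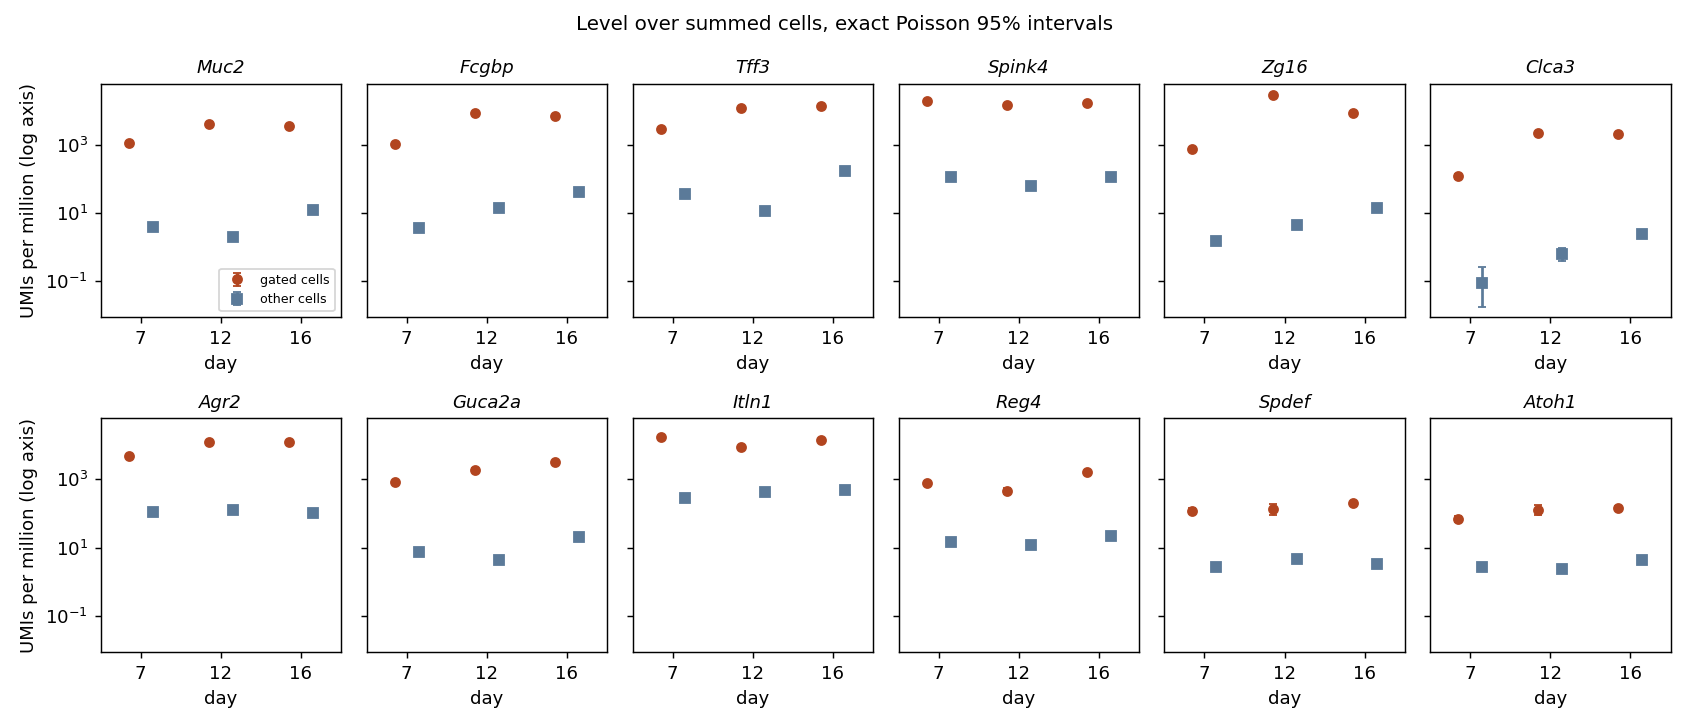
Levels of the 5 gate markers and of 7 further genes in CPM on a log axis, by day, for gated cells (circles) and other cells (squares) with exact Poisson 95% intervals. Spink4 lies between 14384 and 18547 CPM in gated cells of each day, while Muc2, Fcgbp, Tff3 and Zg16 are lowest there at day 7.

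The upstream sequences of the gate markers that the reference table holds are shown because the gate rests on them: 2 of the 5 markers matched, Muc2 and Fcgbp. Each line gives the 250 bases before the annotated start of transcription on the gene's strand, from RefSeq (build GRCm38.p6), in lower case. Capitals mark 2 motifs searched on both strands: an E-box, CAGCTG, the kind of site that factors such as Atoh1 bind, and a forkhead core, TGTTTNC. The Muc2 stretch is chr7:141690090-141690339 on the plus strand and that of Fcgbp is chr7:28070986-28071235 on the plus strand.
Muc2: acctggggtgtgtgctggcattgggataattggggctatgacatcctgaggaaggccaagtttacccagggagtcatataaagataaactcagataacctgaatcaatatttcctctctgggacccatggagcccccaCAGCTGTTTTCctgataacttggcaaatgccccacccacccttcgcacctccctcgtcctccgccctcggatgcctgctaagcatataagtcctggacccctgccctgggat
Fcgbp: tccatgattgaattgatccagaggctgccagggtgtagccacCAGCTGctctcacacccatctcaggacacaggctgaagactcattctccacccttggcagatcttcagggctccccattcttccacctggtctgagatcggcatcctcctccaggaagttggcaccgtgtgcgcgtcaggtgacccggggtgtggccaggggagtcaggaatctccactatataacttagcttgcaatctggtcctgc
Muc2 has 1 E-box and 1 forkhead match, which overlap, and Fcgbp has 1 E-box. Of 27025 promoters of the same length in the table, 12.8% hold the E-box and 17.9% the forkhead letters.

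Many genes outside the gate were higher in gated cells too. Of 12889 genes with at least 50 UMIs, 358 were at least 2-fold higher in gated than in other cells at all 3 days (2.78%), and 1346 were at most 0.5-fold (10.4%). Among 11269 genes with at least 200 UMIs the numbers were 291 (2.58%) and 913 (8.1%). Of these 1346, 371 had no UMI in any gated cell, and the number of gated UMIs sets how many genes can reach this limit. Genes without a gated UMI tie at a ratio of 0, so the lowest cannot be ranked and no fold is given. The 10 named by rule came first in the order of the matrices: Fn1, Scg2, Olfml2b, Nr1i3, Stx11, Ctgf, Ggt1, Matk, Ascl4 and Wif1. Not all are shown to be low, as the upper limits of the Fn1 ratio were 7.93, 2.43 and 10.4. Apart from the gate markers, the 20 highest by their smallest ratio were Sval1, Clca3, Retnlb, Ccl6, Ramp1, Guca2a, Rep15, Defa-ps1, Ccl9, Tpsg1, Capn9, Pla2g10, Bhlha15, Defa20, Hpd, Agr2, Rnase1, Scin, Reg4 and Ern2. Among them are secreted products of goblet cells: Clca3 (the symbol the files use for the mucus metalloprotease now named Clca1), Retnlb (a resistin-like defence protein) and Guca2a (guanylin). Sval1 rested on 1, 2 and 11 gated cells.

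Clca3 had 120, 2143 and 2050 CPM in gated cells of days 7, 12 and 16, and 0.0874, 0.625 and 2.45 CPM in other cells. It was carried by 6 of 80, 8 of 19 and 135 of 229 gated cells. Agr2, the disulphide isomerase that mucin folding needs, had 4839, 12157 and 12628 CPM in gated cells against 112, 131 and 103 CPM in other cells. The Agr2 ratio was 43.4 (41.6 to 45.2), 92.9 (88.8 to 97.2) and 122 (118 to 127). Guca2a had 857, 1906 and 3270 CPM in gated cells and 7.58, 4.52 and 20.8 CPM in other cells. Retnlb differed in its order of days, with 148, 808 and 35.5 CPM in gated cells and 0.437, 0.55 and 0.0919 CPM in other cells. One cell held 43.3% of its gated UMIs at day 7 and one 38.8% at day 12. Itln1 (a lectin made by Paneth and goblet cells) had 17039, 8610 and 14117 CPM in gated cells, against 280, 434 and 475 CPM in other cells.

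Of 14 listed secreted goblet products, 11 were at least 2-fold higher in gated cells at all 3 days and 2 were at most 0.5-fold. The pair at the low end was Muc4, a membrane mucin, and the gene the files call Clca1, whose RefSeq synonyms show another member of the family than the goblet one. Muc4 had 23.2, 16.1 and 8.96 CPM in gated cells and 51.4, 38.2 and 36 CPM in other cells.

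Of 12 transcriptional regulators of goblet cells, 7 were at least 2-fold higher at all 3 days and none was at most 0.5-fold. Spdef, which drives goblet and Paneth maturation, had 120, 133 and 200 CPM in gated cells and 2.71, 4.75 and 3.31 CPM in other cells. After thinning every cell to 2500 UMIs, Spdef was detected in 31.2% (21.3 to 42.6), 42.1% (20.3 to 66.5) and 37.1% (30.8 to 43.7) of gated cells, and in 0.533, 1.08 and 0.429% of other cells. Without thinning the shares were 66.2, 73.7 and 81.2% of gated cells and 1.49, 2.37 and 1.33% of other cells. Atoh1, the secretory fate gene, had 69.6, 129 and 148 CPM in gated cells and 2.77, 2.32 and 4.44 CPM in other cells. Creb3l1, a membrane-bound factor of secretory cells, had 144, 209 and 265 CPM in gated cells against 4.95, 5.95 and 7.75 CPM. Klf4, a factor of goblet cell differentiation, and Foxa3, a forkhead factor, stood further above the other cells at day 16 than at days 7 and 12. The Klf4 ratio was 3.01 (2.55 to 3.53), 1.99 (1.48 to 2.62) and 11.1 (10.3 to 11.9). The Foxa3 ratio was 1.56 (1.34 to 1.8), 1.38 (1.01 to 1.85) and 6.8 (5.95 to 7.77), while Foxa3 in the other cells was 105, 131 and 19 CPM.

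Notch ligands and the Notch target Hes1 differed in direction. The ligands Dll1 and Dll4 were the 2 of 14 tested genes of the list at least 2-fold higher in gated cells at all 3 days, and 3 were at most 0.5-fold. Dll1 had 20.7, 40.2 and 76.9 CPM in gated cells and 7.52, 4.42 and 10.9 CPM in other cells. Dll4 had 42.3, 48.3 and 42.2 CPM in gated cells against 4.46, 3.9 and 3.62 CPM. Hes1, which Notch signalling turns on, was lower, with 39.8, 24.1 and 28.8 CPM in gated cells and 93.4, 205 and 67.3 CPM in other cells.

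The secretory machinery was higher in gated cells. Of 54 genes of folding and export in the endoplasmic reticulum (ER), 31 were at least 2-fold higher at all 3 days and 0 were at most 0.5-fold. Together they had 15245, 22282 and 22860 CPM in gated cells, and 7340, 8724 and 7981 CPM in other cells. The chaperone Hspa5 had 1089, 1407 and 1727 CPM in gated cells against 566, 732 and 551 CPM. Sec61b, of the channel into the ER, had 857, 1227 and 995 CPM in gated cells against 386, 433 and 334 CPM. Ern2, an ER stress sensor of mucus-secreting epithelia, had 96.2, 181 and 126 CPM in gated cells against 3.06, 4.67 and 2.14 CPM. Of 31 tested genes of mucin glycosylation 17 were higher at all 3 days, among them Galnt12, which starts O-glycans, with 142, 322 and 283 CPM in gated cells and 35.2, 35 and 30.1 CPM in other cells. Gfpt1, the first enzyme of amino-sugar synthesis, had 261, 245 and 296 CPM in gated cells against 32.8, 29.9 and 30.4 CPM. Of 24 genes of granules and exocytosis 17 were higher at all 3 days, with a summed level of 1991, 3499 and 4351 CPM in gated cells and 759, 1135 and 470 CPM in other cells.

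Paneth genes were also higher in gated cells, 16 of 20 tested by at least 2-fold at all 3 days and 0 at most 0.5-fold. A Paneth gate (6 lysozyme, defensin and pentraxin genes at 1% or more of UMIs with at least 3 detected) was passed by 58 of 80 gated cells at day 7 (72.5%, 61.4 to 81.9), 10 of 19 at day 12 (52.6%, 28.9 to 75.6) and 83 of 229 at day 16 (36.2%, 30 to 42.8). Of the other cells 25 of 3753, 20 of 4645 and 14 of 2563 passed it. These genes made up 0.629, 0.233 and 0.479% of the UMIs in barcodes of 10 to 100 UMIs, which hold mostly free RNA. Lyz1 had 34876, 20714 and 11796 CPM in gated cells and 485, 301 and 617 CPM in other cells. Defensin genes are near-identical copies, so counts of a single one, such as Defa24 with 61660, 15478 and 22592 CPM in gated cells and 737, 119 and 984 CPM in other cells, are uncertain.

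**Figure D2:**
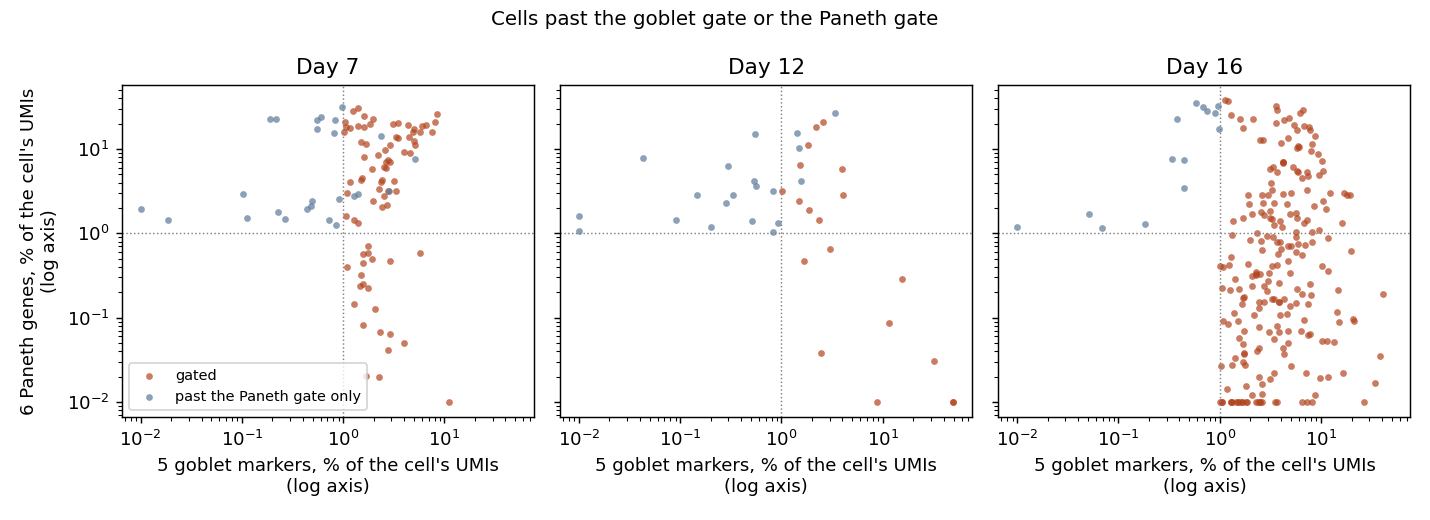
Each point is a cell past the goblet gate (red) or past the Paneth gate alone (blue), by the share of its UMIs in the 5 goblet markers and the 6 Paneth genes, on log axes with shares under 0.01% drawn at 0.01%. Dotted lines mark 1%, and blue points right of the line had fewer than 3 goblet markers. Of the gated cells, 58 of 80, 10 of 19 and 83 of 229 lie past the Paneth gate.

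At all 3 days the gated cells past the Paneth gate had lower levels of Zg16, Clca3, Fcgbp and Tff3 than the other gated cells. Of these 4 genes 3 are gate markers. Spink4, also a gate marker, was higher past the Paneth gate, with 21932, 17903 and 30272 CPM against 9170, 11081 and 9750 CPM. Muc2 had 780, 531 and 3683 CPM past it, against 1929, 7104 and 3385 CPM. It was thus lower there at days 7 and 12 but not at day 16. At day 16 Zg16 had 4451 CPM past it against 10894 CPM, and Clca3 had 1796 against 2191 CPM. The lower level did not extend to all goblet genes, and the listed secreted products differed. Agr2 was lower past the Paneth gate, with 2800, 4974 and 9518 CPM against 10489, 18902 and 14347 CPM. Guca2a was lower past it at days 7 and 12 and higher at day 16, and Reg4 was higher at all 3 days. Paneth cells also make some of these products, such as Itln1, so their sum is not one of goblet genes alone. The 14 secreted products, which include Itln1, together had 31690, 30757 and 60557 CPM in gated cells past the Paneth gate, against 15201, 32314 and 24624 CPM in those not past it. The 12 regulators had 973, 1926 and 1707 CPM past it, against 1754, 1255 and 2087 CPM. Among gated cells past the Paneth gate, none of 58 at day 7 and none of 10 at day 12 had a Zg16 or Clca3 UMI, which allows a share of up to 6.16 and 30.8% by the exact interval. At day 16, 20 of 83 such cells had Zg16 and 42 of 83 had Clca3. Among gated cells not past the Paneth gate, Clca3 was found in 6 of 22, 8 of 9 and 93 of 146. Fcgbp was detected in 16 of 58, 6 of 10 and 79 of 83 gated cells past the Paneth gate. Its level there was 99.3, 465 and 4428 CPM, against 3652, 15861 and 8446 CPM in gated cells not past it. Tff3 had 1194, 2358 and 11153 CPM in gated cells past the Paneth gate, against 7191, 20563 and 15089 CPM in those not past it.

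Cells were also counted from the Paneth side. Of all cells past the Paneth gate, 1 of 83 at day 7, 2 of 30 at day 12 and 59 of 97 at day 16 also passed a goblet gate made without Spink4, that is 1.2% (0.0305 to 6.53), 6.67% (0.818 to 22.1) and 60.8% (50.4 to 70.6). This gate was chosen after the values were seen. Median depth of gated cells past the Paneth gate was 9695, 11563 and 9768 UMIs, against 12250, 11611 and 10513 UMIs in those not past it. No doublet caller was used and the part of doublets was not tested. Without the top 5% of cells by UMIs, 77 of 214 gated cells of day 16 passed the Paneth gate. At day 7, then, 58 of the 80 gated cells had the genes of Paneth cells, with 780 CPM of Muc2 and 1194 CPM of Tff3. The label of goblet cell went against the genes of these 58, which are called gated cells past the Paneth gate here.

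Regenerating-family lectins showed both patterns. Reg4, a marker of deep secretory cells, had 1036, 772 and 4016 CPM in gated cells past the Paneth gate, against 175, 164 and 417 CPM in those not past it. Over all gated cells it had 807, 458 and 1698 CPM, and in other cells 15.1, 12.4 and 21.8 CPM. Reg3b, an antimicrobial lectin, was lower in gated cells at days 7 and 16, with 3654, 9792 and 82.9 CPM in gated cells and 6072, 3128 and 148 CPM in other cells. One cell held 76.1% of the gated Reg3b UMIs at day 16.

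Stem, replication and mitosis genes were lower in gated cells. Of 15 stem genes 11 were at most 0.5-fold at all 3 days and 0 were at least 2-fold higher. Of 20 mitosis genes 13 and of 20 replication genes 5 were at most 0.5-fold, beside 10.4% of all genes tested. The median ratio over all genes tested was itself 0.605, 0.611 and 0.803. It was 0.34, 0.252 and 0.322 for stem genes, 0.262, 0.319 and 0.355 for mitosis genes, and 0.395, 0.53 and 0.474 for replication genes. Lgr5, the sort's own gene, had 93.7, 72.4 and 11.9 CPM in gated cells and 200, 234 and 47.6 CPM in other cells. Mki67, made in cycling cells, had 81.2, 28.1 and 144 CPM in gated cells and 191, 81.8 and 287 CPM in other cells. Within the gate, the mitosis genes together had 220, 108 and 220 CPM in cells past the Paneth gate, against 1469, 585 and 1118 CPM in those not past it. Their level in other cells was 1843, 1064 and 1965 CPM. The replication genes had 352, 307 and 232 CPM past it, against 1176, 1076 and 1037 CPM, and 1406, 1262 and 1577 CPM in other cells. The stem genes had no such common order, with 1308, 1694 and 582 CPM past it, against 1751, 593 and 748 CPM. After thinning, at least 2 mitosis UMIs were found in 10.3, 0 and 4.82% of gated cells past the Paneth gate and in 40.9, 11.1 and 28.8% of those not past it. In other cells the share was 32, 18 and 42.4%. Without thinning it was 37.5, 31.6 and 31.4% of all gated cells and 46.9, 28.8 and 65% of other cells. Mki67 had 241, 46.8 and 209 CPM in gated cells not past the Paneth gate.

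At day 16, with 52, 95, 55 and 27 gated cells at 1 to 2, 2 to 5, 5 to 10 and at least 10% of UMIs in gate markers, cycling genes were lower as the gate share was higher. The bins also differed in Paneth genes, with 9, 34, 31 and 9 cells past the Paneth gate, and the part of this was not tested. The 20 mitosis genes together had 1311, 930, 311 and 36.8 CPM over these bins. The 15 stem genes had 867, 820, 479 and 180 CPM, and the 20 replication genes 1343, 824, 194 and 158 CPM. Granule genes ran the other way, with 2716, 4120, 5314 and 7396 CPM, and Scin, an actin-severing protein, had 231, 357, 573 and 1361 CPM. Fcgbp, itself a gate marker, had 2424, 4799, 8558 and 24377 CPM. ER genes showed no steady order over the bins, with 18838, 24485, 25352 and 21423 CPM. Median depth was 10965, 9917, 10694 and 10326 UMIs. Cell by cell, Spearman's rho of the mitosis genes with the gate markers other than Spink4 was 0.23 over 80 gated cells of day 7, 0.021 over 19 of day 12 and -0.17 over 229 of day 16, a weak relation with no common sign. Bins share a denominator with the gate markers, and cells of 1 library share their source.

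**Figure D3:**
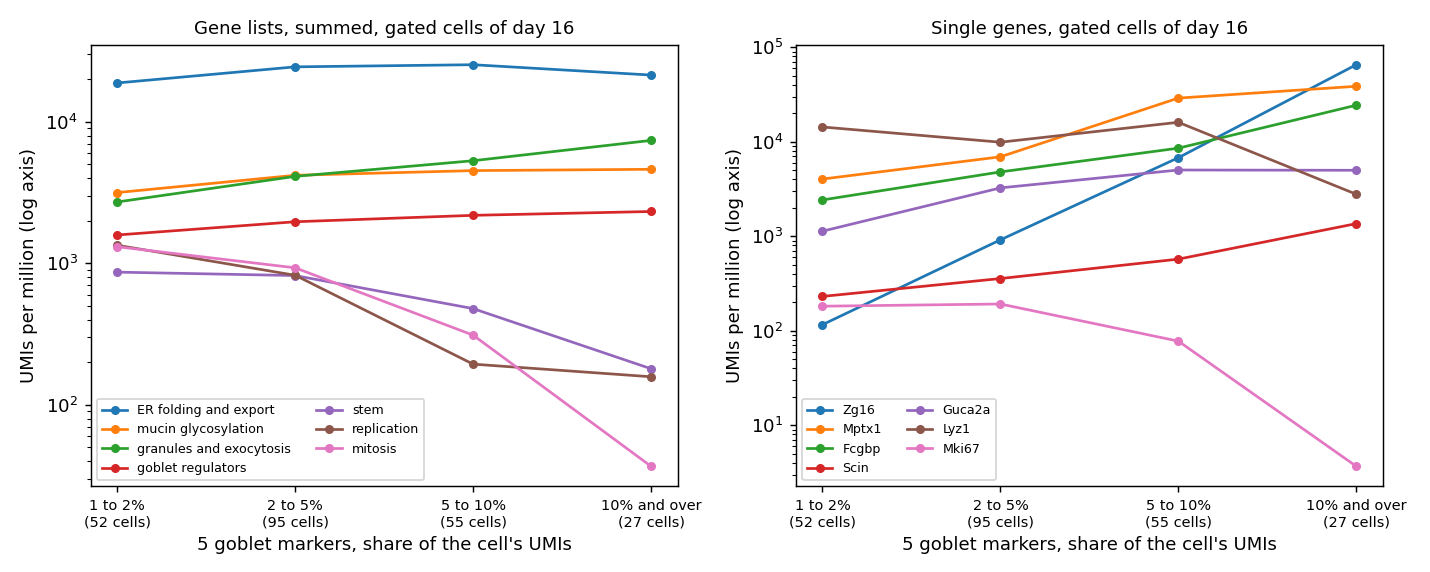
Gated cells of day 16 binned by the share of UMIs in the 5 gate markers, with summed levels of gene lists (left) and single genes (right) in CPM on log axes. Mitosis genes lie at 1311 CPM in the weakest bin and 36.8 CPM in the strongest, and granule genes at 2716 and 7396 CPM.

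Markers of other cell types differed by list and day. Of 22 enteroendocrine genes, 15 were at most 0.5-fold in gated cells at all 3 days. One, Sct (secretin), was at least 2-fold higher, with 95.3, 84.4 and 345 CPM in gated cells and 8.63, 5.37 and 42.7 CPM in other cells. Of all genes tested 10.4% were at most 0.5-fold at all 3 days. The 22 genes together had 125, 31 and 1196 gated UMIs, and their median ratio was 0 at days 7 and 12. With so few UMIs not all of the 15 are shown to be low. An enteroendocrine gate of the same form was passed by 0 of 80, 0 of 19 and 1 of 229 gated cells, and tuft, stem and enterocyte gates by none of the 328. Few other cells passed these gates either: 1, 2 and 22 the tuft gate, 4, 1 and 1 the stem gate and 2, 12 and 69 the enterocyte gate, so the absence among gated cells says little. Of 20 enterocyte genes 6 were at most 0.5-fold in gated cells at all 3 days and 0 were higher. Their summed ratio was 0.741, 1.64 (1.44 to 1.86) and 0.284. Fabp2, a fatty acid binding protein of enterocytes, had a ratio of 11.5 at day 12, in 14 of 19 gated cells. The summed enteroendocrine ratio was 0.507, 1.67 (1.14 to 2.38) and 0.296. The part of these markers in the gated levels was not tested. Of 16 tested tuft genes 10 were at most 0.5-fold and 0 higher. The tuft list had 29, 2 and 104 gated UMIs, and the immune list had a median ratio of 0 at days 7 and 12. Low members of these 2 lists are therefore not all shown to be low. Of 10 tested immune genes 6 were at most 0.5-fold and 1 was higher, the lysozyme Lyz2, which is close in sequence to Lyz1. The leukocyte marker Ptprc was found in 1 gated cell, of day 16, and in none of the thinned gated cells. The epithelial marker Epcam had 1162, 1560 and 1372 CPM in gated cells and 1811, 2062 and 1815 CPM in other cells.

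PRC2 genes and genes that PRC2 silences were read in the same cells. The targeted gene Eed was still counted, and a tag at the end of the transcript need not lie in the deleted part, so its level checks nothing about recombination. Eed had 23.2 (15.4 to 33.5), 12.1 (2.49 to 35.3) and 10.1 (6.64 to 14.7) CPM in gated cells, and 55.5, 27.6 and 28 CPM in other cells. Ezh2, the methyltransferase, had 43.1, 36.2 and 60.1 CPM in gated cells against 125, 113 and 117 CPM. Of 11 PRC2 genes 1 was at most 0.5-fold at all 3 days and 0 were at least 2-fold higher, a share of low genes near the 10.4% of all genes. Cdkn2a, a cell cycle inhibitor locus that PRC2 keeps silent, had no UMI in gated cells of days 7 and 12 and 53 (44.7 to 62.5) CPM at day 16, against 0, 1.27 and 24.6 CPM in other cells. It was detected in 65 of 229 gated and 306 of 2563 other cells of day 16, or 28.4 and 11.9%. After thinning the shares were 6.11% (3.38 to 10) and 4.06% (3.33 to 4.9), whose intervals overlap. Cdkn1a, another inhibitor, had 67.2, 117 and 250 CPM in gated cells against 41.9, 66.8 and 103 CPM. Hox genes were detected after thinning in 0, 5.26 and 23.1% (17.8 to 29.2) of gated cells, and in 3.84, 3.83 and 10.4% (9.26 to 11.7) of other cells.

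Between days, gated cells of day 16 were at least 2-fold above day 7 in 523 of 4811 genes (10.9%) and at most 0.5-fold in 114 (2.37%). Day 12 was at least 2-fold above day 7 in 73 of 1234 genes (5.92%) and at most 0.5-fold in 84 (6.81%). Genes were counted with at least 50 UMIs and 10% of cells at the higher day, so each entered through the day where it was higher. Gated cells held 1206203, 248671 and 2678257 UMIs at days 7, 12 and 16, so 50 UMIs is a different CPM at each day. The numbers of genes above and below day 7 therefore cannot be set against each other. The 8 genes furthest above day 7 at day 16 were Mptx1, Scin, Barx1, Ddx3y, Tff2, Cdkn2a, Hoxb13 and Krt20. The 8 furthest below were Xist, Ifitm1, H2-Aa, Reg3b, H2-Eb1, Wfdc18, Clu and Cfi. Both sets moved the same way in the other cells, where the first 8 were also higher at day 16 and the second 8 also lower. Ddx3y and Xist among them are the genes by which day 16 differs in sex. The day 16 to day 7 ratio of Scin was 47.7 in gated cells and 87.5 in other cells. That of Krt20, an epithelial keratin, was 20.9 and 10.7. The mix of gated cells differed too, with 58 of 80 past the Paneth gate at day 7 and 83 of 229 at day 16. In gated cells not past it, Scin had 37.5 CPM at day 7 and 590 CPM at day 16. Krt20 had 9.38 CPM there at day 7, from 3 UMIs, and 64.4 CPM at day 16. The part of the mix in the ratios between days was not tested.

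Mptx1 and Mptx2, mucosal pentraxins, differed in opposite directions between days 16 and 7. Mptx1 had 2 UMIs at day 7 (1.66 CPM), none at day 12 and 38749 at day 16 (14468 CPM, 14324 to 14613) in gated cells, and 1.63, 0.55 and 13.6 CPM in other cells. The day 16 to day 7 ratio in gated cells was 8726 (2415 to 72053). Mptx2 had 4294, 5606 and 221 CPM in gated cells and 43.7, 67.1 and 13.7 CPM in other cells. One cell held 81.7% of the day 12 Mptx2 UMIs. At day 16 Mptx1 was found in 144 and Mptx2 in 78 of 229 gated cells, and 76 had both. Mptx1 took at least 1% of all UMIs in 51 of 229 gated cells of day 16 and in 0 of 2563 other cells. It was present in 66 of 83 gated cells past the Paneth gate and 78 of 146 not past it.

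The 2 genes lie on opposite strands of chromosome 1, and their upstream 250 bases are shown because they are close in sequence while their levels were not. The Mptx1 stretch is chr1:174330268-174330517 on the plus strand and that of Mptx2 is chr1:173277757-173278006 on the minus strand, from RefSeq in build GRCm38.p6, in capitals where TGTTTNC matches.
Mptx1: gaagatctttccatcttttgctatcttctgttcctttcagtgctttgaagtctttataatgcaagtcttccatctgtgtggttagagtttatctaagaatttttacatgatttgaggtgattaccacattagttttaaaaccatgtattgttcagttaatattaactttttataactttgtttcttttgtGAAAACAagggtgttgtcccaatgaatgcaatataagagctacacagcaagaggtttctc
Mptx2: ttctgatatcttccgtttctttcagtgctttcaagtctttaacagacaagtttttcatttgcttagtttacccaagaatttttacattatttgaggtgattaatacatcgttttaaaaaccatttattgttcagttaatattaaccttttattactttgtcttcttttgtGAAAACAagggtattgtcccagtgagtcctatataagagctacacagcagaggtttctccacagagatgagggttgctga
Aligned end to end, 197 of 228 paired bases are identical (86.4%), while Muc2 and Fcgbp share 130 of 213 (61%). Both have 1 forkhead match, of the same letters, and no CAGCTG. Since the transcripts of such a pair can share reads, the split of counts between Mptx1 and Mptx2 is uncertain where both are present.

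**Figure D4:**
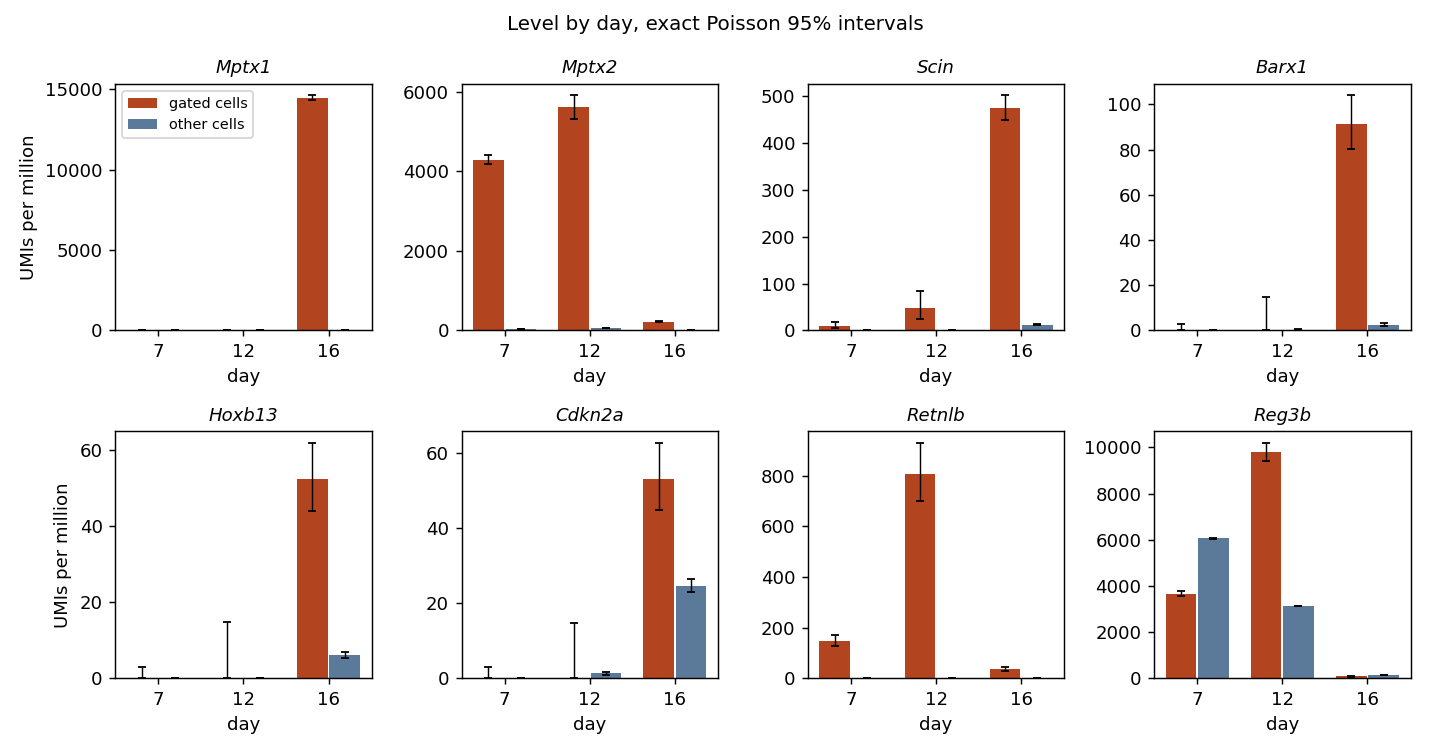
Levels in CPM by day for 8 genes, in gated cells (red) and other cells (blue) with exact Poisson 95% intervals. Mptx1 is at 14468 CPM in gated cells of day 16 and at 1.66 CPM at day 7, Mptx2 at 221 and 4294 CPM.

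Scin had 9.95 (5.14 to 17.4), 48.3 (24.9 to 84.3) and 475 (449 to 502) CPM in gated cells, and 0.146, 0.3 and 12.7 CPM in other cells. It was detected in 5 of 80, 3 of 19 and 148 of 229 gated cells, and at day 16 in 116 of 146 cells not past the Paneth gate against 32 of 83 past it. Barx1, a homeobox gene known from stomach mesenchyme, had no UMI in gated cells of days 7 and 12 and 91.5 CPM at day 16. Set against a floor of 3 UMIs over the gated cells of day 7, Barx1 was at least 36.8-fold higher at day 16, and the exact interval of the ratio, which allows for more than 3, starts at 29.7. Barx1 was detected in 79 of 229 gated and 46 of 2563 other cells of day 16. Hoxb13, a Hox gene of the hindmost body, had no UMI in gated cells of days 7 and 12 and 52.3 CPM at day 16, at least 21-fold higher by the same floor, with an exact interval that starts at 16.9. It was detected in 71 of 229 gated and 138 of 2563 other cells of day 16, where it had 6.1 CPM. Tff2, a trefoil peptide of the stomach, had 1 UMI, none and 143 UMIs in gated cells, or 0.829, 0 and 53.4 CPM, and 0.379, 0.4 and 1.56 CPM in other cells. These genes were above the other cells at day 16 too: the ratio of gated to other cells was 35.1 (27.3 to 45.5) for Barx1, 34.2 (24.7 to 48) for Tff2 and 8.57 (6.86 to 10.7) for Hoxb13.

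The genes furthest above day 7 at day 12 were Zg16, Clca3, Pkm, S100a6, Fcgbp, Dmbt1, Fabp2 and Tpsg1, and among those furthest below were Defa26, Olfm4, Apoc2, Klf2, Hook1, Defa24 and Kctd14. Cells past the Paneth gate were 58 of 80 at day 7 and 10 of 19 at day 12. In gated cells not past the Paneth gate, Defa24 had 1279 CPM at day 12 and 800 CPM at day 7, whereas over all gated cells it had 15478 CPM at day 12 and 61660 CPM at day 7. Pkm and S100a6 were as much higher at day 12 in the other cells: the day 12 to day 7 ratio was 12.9 in gated and 14.3 in other cells for Pkm, and 9.8 and 9.95 for S100a6. Neither was higher in gated than in other cells of day 12, with ratios of 0.5 and 0.218. S100a6 was found in 8 of 19 gated cells of day 12, and one held 51.5% of its UMIs. Dmbt1 was found in 3 gated cells of day 12, and one held 79.5% of its UMIs. With 19 gated cells at day 12, single cells weigh heavily there.

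Bulk libraries of the same sort gave tests that did not use the gate, though no cell type is separated in them, and fewer cells of a type and less RNA per cell cannot be told apart. In 14692 genes tested with edgeR, 2974 changed at day 21 against day 9 (20.2%; 1096 rose, 7.46%, and 1878 fell, 12.8%) and 1511 at day 30 (10.3%; 539 rose, 3.67%, and 972 fell, 6.62%), at an adjusted p under 0.05. At day 14 it was 7508 genes (51.1%; 25.4% rose and 25.7% fell). Zg16 rose at day 21, with 204 and 854 CPM at day 21 and 118, 91.7 and 115 CPM at day 9 (log2 change 2.29, SE 0.45, edgeR adjusted p = 0.00951). The ranges did not overlap, and the 2 libraries of day 21 lay far apart. Zg16 had 458 CPM in the library of day 30 (log2 2.08, SE 0.53, edgeR adjusted p = 0.0409), a call lost without any 1 of the 3 day 9 libraries and without either day 14 library.

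Muc2 had 1597 and 2660 CPM at day 21 and 1060, 1495 and 1118 CPM at day 9 (log2 0.80, SE 0.21, edgeR adjusted p = 0.032). This call was lost in 5 of the 7 fits that left out a library. Without day 21 replicate 2 the log2 change was 0.38. Fcgbp had 3380 and 7827 CPM at day 21 and 2987, 3336 and 3326 CPM at day 9, and did not pass (log2 0.80, SE 0.27, edgeR adjusted p = 0.0721). Spink4 had 743 and 507 CPM at day 21 and 836, 1463 and 923 CPM at day 9, with no overlap of the libraries but short of the threshold (log2 -0.78, SE 0.25, edgeR adjusted p = 0.0579). Tff3 was close to it (log2 -0.63, SE 0.19, edgeR adjusted p = 0.052). Of the 5 gate markers 2 rose and 0 fell at day 21, with a median log2 change of 0.80 against -0.01 over all genes tested. At day 14 none rose and Muc2 and Fcgbp fell (log2 -2.26 and -1.03, edgeR adjusted p = 7.9e-05 and 0.0157).

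**Figure D5:**
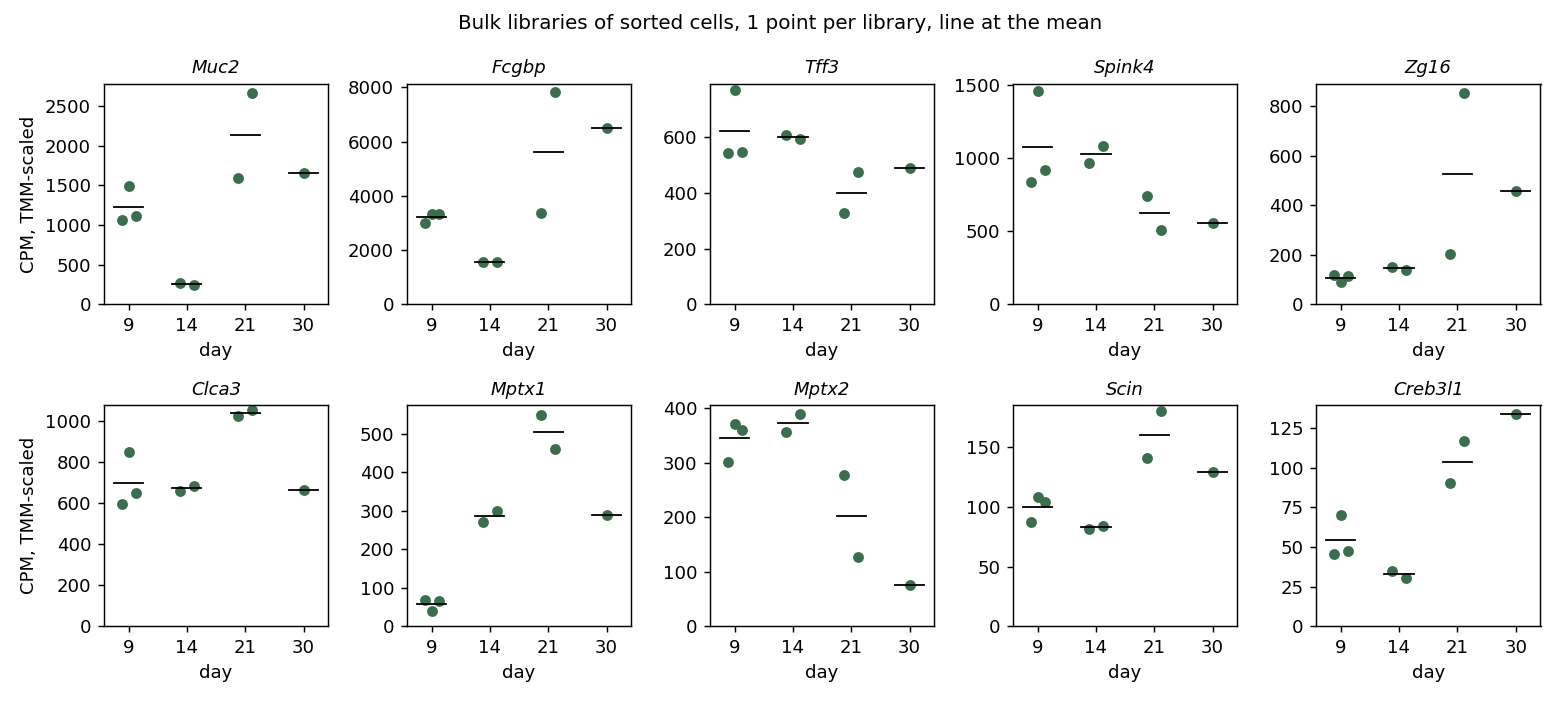
Levels in CPM, scaled by TMM, of 10 genes in each bulk library by day, with 1 point per library and a line at the mean of the day. Both day 21 libraries of Mptx1, the lower at 459 CPM, lie above all day 9 libraries, the highest at 69.4 CPM, and the 2 day 21 libraries of Zg16 lie at 204 and 854 CPM.

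Mptx1 rose in bulk at both late days. It had 548 and 459 CPM at day 21, 289 CPM at day 30 and 69.4, 39.7 and 65.4 CPM at day 9 (log2 3.12, SE 0.21, edgeR adjusted p = 2.23e-05 at day 21, and 2.31, SE 0.24, edgeR adjusted p = 0.000575 at day 30). Mptx2 fell at day 30, with 75.5 CPM against 301, 371 and 360 CPM at day 9 (log2 -2.19, SE 0.39, edgeR adjusted p = 0.0106). Its 277 and 126 CPM at day 21 did not pass (edgeR adjusted p = 0.0827). Scin had 141 and 180 CPM at day 21 and 87.3, 108 and 104 CPM at day 9 (log2 0.68, SE 0.12, edgeR adjusted p = 0.00661). Barx1 and Hoxb13 rose at day 21 by 3.90 (SE 0.39) and 5.94 (SE 0.66) on the log2 scale (edgeR adjusted p = 0.000237 and 0.000476). Both started near 0 at day 9, with 0.172 to 0.406 CPM for Barx1 and 0 to 0.284 CPM for Hoxb13. Clca3 had 1026 and 1055 CPM at day 21 and 597, 848 and 652 CPM at day 9 (log2 0.57, SE 0.14, edgeR adjusted p = 0.0212). This call was lost without either day 21 library and without day 9 replicate 1 or 3. In single cells of day 7, Scin and Clca3 had 9.95 and 120 CPM in gated cells, and 0.146 and 0.0874 CPM in other cells. Their bulk levels at day 9 were above these, so sizes of change cannot be set side by side. The reason was not tested.

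Other goblet genes were counted beside the 7.46% of all tested genes that rose and the 12.8% that fell at day 21. The risers among secreted products, regulators and ER genes made up shares near that background. Of 14 secreted products 1 rose and 0 fell at day 21, the riser being Muc4, with 383 and 498 CPM at day 21 and 153, 109 and 147 CPM at day 9 (log2 1.69, SE 0.17, edgeR adjusted p = 0.00026), a gene low in gated cells. Of 12 regulators 1 rose at day 21, Creb3l1, with 90.5 and 117 CPM at day 21 and 45.4, 70 and 47.6 CPM at day 9 (log2 0.93, SE 0.19, edgeR adjusted p = 0.0108), a call lost without day 21 replicate 2. At day 14 against day 9, 0 secreted products rose and 4 fell, and 4 regulators rose and 4 fell. For ER genes it was 29 and 5, for granule genes 5 and 9, and for mucin glycosylation genes 11 and 6. Over all genes tested 25.4% rose and 25.7% fell at day 14. Creb3l1 and Muc4 were among those that fell then (log2 -0.73 and -1.03, edgeR adjusted p = 0.0147 and 0.00148). At day 30 the regulators Creb3l1 and Atoh1 rose. Muc4 and Agr2 also rose at day 30, by 1.62 and 1.06 on the log2 scale, while Itln1 and Ang4 fell by 3.37 and 5.30. The calls of Agr2, Itln1 and Ang4 at day 30 were lost without any 1 of the day 9 or day 14 libraries. Of 33 mucin glycosylation genes 7 rose and 1 fell at day 21, and of 24 granule genes 5 rose and 0 fell, among them Sytl2, Rab27a, Scin and Bcas1. Scin kept its call without each library in turn. Of 54 ER genes 4 rose and 11 fell. One of these, Sec61g, had 0.355 and 0.526 CPM at day 21, 0.497 CPM at day 30 and 75.9, 81 and 82.4 CPM at day 9; the reason for this gap was not tested. Of the 19 tested Paneth genes 1 rose and 2 fell at day 21, and 1 rose and 6 fell at day 30, where their median log2 change was -3.42. Lyz1 had 4173 and 968 CPM at day 21 and 8847, 15516 and 6926 CPM at day 9 (log2 -2.02, SE 0.57, edgeR adjusted p = 0.0383). Markers of other cells also moved at day 21: of 16 tested immune genes 3 rose and of 6 tested stromal genes 2 rose, with median log2 changes of 0.57 and 1.91, and of 17 tested tuft genes 11 rose. Of 22 enteroendocrine genes 6 rose and 0 fell, and of 20 enterocyte genes 4 rose and 1 fell, with median log2 changes of 0.77 and 0.85. Their part in the bulk results was not tested.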

How the data were processed

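Single cells: the deposited matrices hold UMI counts per gene and barcode (24052 genes); Cell Ranger 3.0.2 and build mm9 are named per the submitters' processing notes, without a role. Bulk: the deposited table holds read counts per gene, with STAR 2.5.3a among the tools named per the submitters' processing notes; strand use is not given in the sources used here. 1 sample column that matched no label was left out, and the second library labelled day 30 was not analysed here.

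UMIs of gated and other cells were summed per day and divided by the summed UMIs (CPM), with NumPy 2.4.6, SciPy 1.17.1 and pandas 2.3.3 in Python 3.11.15. With 1 library a day there was no test between days or cells. Genes needed 50 UMIs. Thinning drew 2500 UMIs per cell. No doublet caller was run. Cell barcodes shared by libraries numbered 4 (days 7 and 12), 1 (days 7 and 16) and 4 (days 12 and 16), none gated.

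The 8 bulk libraries, with totals of 21328684 to 27900351 counts, were fitted together by edgeR 4.0.16 (R 4.3.3, TMM, quasi-likelihood F test, Benjamini-Hochberg over 14692 genes). DESeq2 1.42.0 was run as an alternative. The fit was also run on simulated counts, with far fewer genes changed at day 21 than were called here. That run does not vouch for the calls. The labels call the bulk libraries biological replicates without naming animals, and p-values cover spread among the samples sequenced, possibly technical alone. The single day 30 library is assumed to vary like the other days.

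Members and gene lists were chosen with earlier results of these data known. Genes named are the gate markers, Eed, Ezh2 and Cdkn2a, up to 5 members per list with the most gated UMIs, called members of the goblet lists in bulk, the 25 highest and 10 lowest ratios against other cells, and the 8 highest and 8 lowest between days. Other named genes were chosen after their values were seen. Some genes that this rule names are not reported here.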

Additional observations from a re-analysis of the deposited data

Results flagged for a closer look

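For 9 named genes the ratio of gated over other cells was at least 2 at one day and at most 0.5 at another, counting a ratio of 0. Each day is 1 library, and the difference was not tested for any of them. Atf3, a stress-induced factor, had a ratio of 0.33 at day 12 and 3.81 at day 16. Klf2 had 3.06 at day 7, 0.25 at day 12 and 6.56 at day 16. Its day 12 value rests on 3 UMIs of 1 gated cell, and the interval of 0.0516 to 0.733 reaches above 0.5. S100a6, a calcium-binding protein, had 0.222 at day 7, 0.218 at day 12 and 12.7 at day 16. Dmbt1, a mucosal scavenger protein, had 10.1 at day 12 and 0.243 at day 16. Gsta1, a glutathione transferase, had 7.25 at day 12 and 0.273 at day 16. Prap1 had 2.05 at day 12 and 0.2 at day 16. H2-Aa, a class II histocompatibility gene, had 2.21 at day 12 and 0.048 at day 16. Neurog3, the enteroendocrine fate gene, had 4.17 at day 12, from 1 cell, and no gated UMI at day 7 (a ratio of 0, with an upper limit of 0.157). Phf1, a PRC2 accessory gene, had 2.44 at day 16 and no gated UMI at day 7, where the ratio of 0 has an upper limit of 0.8 and so is not shown to lie below 0.5. Day 12 rests on 19 gated cells.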

How the results depend on the processing

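The gated share was 2.09, 0.407 and 8.2% at days 7, 12 and 16. At day 7 it was 1.15% with a gate of 2% of UMIs, 0.209% with 5 of 5 markers, 1.51% after thinning, 2.7% at no more than 10% mitochondrial UMIs and 0.313% without Spink4. At day 12 it was 0.172% with 5 of 5 markers and 0.214% without Spink4. At day 16 it was 9.53% and 6.34% with gates of 0.5% and 2%, 3.01% with 5 of 5 markers, 21.9% with the mitochondrial limit and 6.63% without Spink4. The share of gated cells past the Paneth gate was 0, 0 and 22.6% with 5 of 5 markers and 51.2, 26.3 and 17.9% with a Paneth gate of 5%. It was 27.1% at day 16 with a Paneth gate of 2%, and 8.33 and 20% at days 7 and 12 without Spink4. The gate without Spink4 was chosen after seeing the data. The cause of these shifts was not tested.

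Without gated cells past the Paneth gate, log2 ratios to other cells changed sign for Gm15284 (-4.02 at day 7, -3.98 at day 16), AY761184 (-4.28 and -2.65), Gm14851 (-5.17 and -6.41), Lyz1 (-0.03 at day 16), Defa17 (-0.11 at day 16), Defa22 (-4.56 at day 7), Mptx2 (-3.80 at day 7), Mki67 (0.33), Top2a (0.03) and Lrmp (0.65), the last 3 at day 7. The day 12 to day 7 log2 ratio became 1.32 for Defa26, 0.58 for Apoc2 and 0.68 for Defa24. Prap1 at day 12 became -0.21 with a gate of 2%. Of 1290 values of named genes against other cells, 922 stayed within the counting interval of the reported ratio, 354 lay outside it, and 14 changed sign.

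In bulk, leaving out 1 library gave 6076 to 7516 calls at day 14, 1864 to 2811 at day 21 and 875 to 1832 at day 30. Library-size scaling gave 2377 at day 30. Replicate numbers did not pair the libraries (same-number correlations of deviations -0.02 to 0.05), and a replicate block gave 1689 calls at day 21 and 764 at day 30. Counts of single genes are limited by 19 gated cells at day 12.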
